A study of Mus musculus with 25 samples.

Results

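The genes described here encode the T cell receptor complex and the proteins that carry or restrain its signal close to the membrane. They were taken by name from a list of 46 mouse genes, which was drawn up for its function but with earlier results of these data known, and 45 of them had a transcript cluster among the 22206 tested. Lck, the kinase that starts the signal, had no cluster in the probe table used here. The 45 comprised 4 receptor chains, 6 coreceptors and accessory receptors, 6 genes for kinases and the phosphatase CD45, 14 adaptors and effectors, 3 NFAT transcription factors and 12 negative regulators.

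The cells were invariant natural killer T (iNKT) cells sorted from the thymus of C57BL/6 mice, and each sample was hybridised to 1 Clariom S array. Genotypes were dKOMst, Mst1KO and WT; Mst1 is a serine/threonine kinase of the Hippo pathway encoded by Stk4, and dKOMst mice lack Mst1 together with its relative Mst2, while the controls carry neither deletion. All sorted cells bound a CD1d tetramer and an antibody to the TCR beta chain and lacked CD24, and the labels also name a CD8 microbead kit for the enrichment step. The groups were dKOMst S3 (1 array), Mst1KO S3 (5), WT S3 (7), dKOMst S1_S2 (2), Mst1KO S1_S2 (4) and WT S1_S2 (6), where S3 cells carried CD44 and NK1.1 and S1_S2 cells lacked NK1.1 and could carry CD44 or not. The labels do not say whether an allele is germline or conditional, and nothing in them ties each array to its own mouse, so every p-value rests on array-to-array spread, part of which may be technical. Levels are log2 values, on which a difference of 1 is a doubling, and fewer cells of a type and less RNA per cell cannot be told apart in such sorted pools.

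In T cells, CD3 chains and the zeta chain (Cd247) hold the antigen-binding chains at the surface and carry the motifs that Lck phosphorylates. ZAP-70 then binds those motifs and phosphorylates the adaptors LAT and SLP-76, from which phospholipase C gamma, Ras and calcium signals branch to PKC theta, the CARMA-BCL10-MALT1 complex and NFAT. Phosphatases, ubiquitin ligases, diacylglycerol kinases and inhibitory adaptors set how long the signal lasts. iNKT cells depend on this receptor for their selection by CD1d-bound lipid in the thymus, and then mature through stages read by CD44 and NK1.1.

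Promoters of 6 members are shown because their genes represent the patterns described below: receptor chains with small steps of opposite sign between stages (Cd3e, Cd247), members that were lower in S3 cells (Cd5, Themis), a negative regulator that was higher in S3 cells (Ptpn22) and one that was higher in knockout cells (Dgka). The sequences are those of RefSeq on GRCm38.p6, each with 250 bases before and 50 after the start of transcription, and the most upstream start is shown for Themis, Ptpn22 and Dgka, which have 2, 2 and 4 listed starts. Capitals mark every CACCTG (an E-box, the site type of E proteins) and every AGGAAG (an ETS-type site), read on either strand, so that CAGGTG and CTTCCT are marked too.
Cd3e (chr9:45009562-45009861, - strand): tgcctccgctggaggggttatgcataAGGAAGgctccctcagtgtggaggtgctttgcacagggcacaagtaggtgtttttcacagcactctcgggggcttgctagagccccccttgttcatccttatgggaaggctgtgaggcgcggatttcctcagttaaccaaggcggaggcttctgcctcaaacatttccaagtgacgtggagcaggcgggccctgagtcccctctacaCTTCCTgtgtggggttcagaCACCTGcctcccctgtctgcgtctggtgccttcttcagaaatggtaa
Cd247 (chr1:165788431-165788730, + strand): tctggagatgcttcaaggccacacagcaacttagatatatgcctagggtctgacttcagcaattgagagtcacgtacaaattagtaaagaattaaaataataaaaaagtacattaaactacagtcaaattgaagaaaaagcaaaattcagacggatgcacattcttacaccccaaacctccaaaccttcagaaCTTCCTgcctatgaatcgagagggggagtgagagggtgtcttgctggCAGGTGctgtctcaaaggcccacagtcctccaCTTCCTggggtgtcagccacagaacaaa
Cd5 (chr19:10738925-10739224, - strand): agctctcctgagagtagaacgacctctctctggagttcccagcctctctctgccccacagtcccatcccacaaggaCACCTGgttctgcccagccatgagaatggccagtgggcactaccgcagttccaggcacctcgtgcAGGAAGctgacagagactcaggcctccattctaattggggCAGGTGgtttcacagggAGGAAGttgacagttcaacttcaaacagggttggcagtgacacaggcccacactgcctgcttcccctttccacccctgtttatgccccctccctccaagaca
Themis (chr10:28668110-28668409, + strand): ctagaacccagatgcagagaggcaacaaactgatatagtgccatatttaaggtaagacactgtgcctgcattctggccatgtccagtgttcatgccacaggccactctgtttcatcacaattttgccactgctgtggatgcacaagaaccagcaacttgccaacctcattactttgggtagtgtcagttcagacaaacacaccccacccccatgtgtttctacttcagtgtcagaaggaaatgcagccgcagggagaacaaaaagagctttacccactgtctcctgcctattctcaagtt
Ptpn22 (chr3:103859545-103859844, + strand): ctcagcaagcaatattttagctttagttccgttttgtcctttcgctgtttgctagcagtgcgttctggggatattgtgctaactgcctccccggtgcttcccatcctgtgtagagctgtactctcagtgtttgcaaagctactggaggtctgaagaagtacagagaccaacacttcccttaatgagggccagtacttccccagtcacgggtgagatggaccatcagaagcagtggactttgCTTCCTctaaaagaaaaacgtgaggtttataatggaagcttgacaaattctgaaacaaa
Dgka (chr10:128745035-128745334, - strand): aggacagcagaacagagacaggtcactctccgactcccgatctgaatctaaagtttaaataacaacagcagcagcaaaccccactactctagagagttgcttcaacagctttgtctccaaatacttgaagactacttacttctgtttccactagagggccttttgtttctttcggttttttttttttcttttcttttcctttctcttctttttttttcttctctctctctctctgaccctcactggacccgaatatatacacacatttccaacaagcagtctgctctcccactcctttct

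Of the 46 genes, 37 had an entry among these promoters, with 53 starts in all; Cd4, Cd8b1, Cd2, Cd6, Malt1, Nfatc1, Sla, Skap1 and Pag1 had none. The E-box letters were found in at least 1 promoter of 17 of the 37 genes (45.9%), against 22.6% of all 27025 genes in the table. By promoter they were in 19 of the 53, against 20.2% of all 32851 promoters of this length. All 4 receptor chain genes held an E-box, as did Zap70, Cd5, Ptpn6 and Sit1. The ETS letters were found for 26 of the 37 genes (70.3%), against 38.4% of all genes, and in 35 of the 53 promoters, against 35.4% of all. Neither was found in the 2 Themis promoters. A T-box type site (GGTGTG or CACACC) was found for 12 of the 37 genes (32.4%, against 21.4% of all genes), Themis and Dgka among them. It was in 15 of the 53 promoters, against 19% of all. A RUNX-type site (TGTGGT or ACCACA) was found for 8 of the 37 genes (21.6%, against 18.9% of all genes). It was in 8 of the 53 promoters, against 16.8% of all, so its share by promoter was no higher. A gene with several starts has more chances of a match. The T-box letters can overlap those of the E-box and RUNX types, so 1 stretch may count for both. The motifs were chosen with these genes in view, and a match describes the letters of the window and is not a binding site.

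Most members were among the brightest transcripts of the cells, and 40 of 45 lay in the brightest 25% of all clusters. Means over the 25 arrays ran from 7.27 for Cd8a to 12.68 for Cd3d. Negative control medians of the arrays lay between 6.19 and 6.59, and only Cd8a read below its array's control median, on 1 dKOMst S1_S2 array. Themis had the widest range of group means (3.25), followed by Cd8a (1.3), Ptpn22 (1.14) and Tec (1.11), and Cd3d the narrowest (0.13). These are values of different probes, so the order of levels between genes is not an order of transcript amounts.

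Facts of the whole data set bear on what follows. Sample titles carry numbers in 2 separate blocks: all 9 Mst1KO arrays lie in the first, all 3 dKOMst arrays in the second and WT arrays of both stages in both. What the numbers mean is not given in the labels, so the block was an additive term of the limma fit, which gave every difference, standard error (SE) and adjusted p below; a member was called at an adjusted p under 0.05 over all clusters. The 8 measured iNKT markers read above the negative controls on all 25 arrays. Stk4 differed from WT cells of the same stage by -0.92 ± 0.16 (SE) in Mst1KO S1_S2 (adjusted p = 0.0059), -0.74 ± 0.20 in dKOMst S1_S2 (adjusted p = 0.083) and -0.35 ± 0.15 in Mst1KO S3 cells (adjusted p = 0.15), so it stayed measurable in the knockouts; no label places its probes inside or outside the deletion. Arrays 3 and 4 of each Mst1KO stage lacked signal of Y-linked genes, and results that rest on them are given without them as well.

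All 4 receptor chains were high in all groups, and their group means ranged over 0.13 for Cd3d, 0.29 for Cd3g, 0.34 for Cd3e and 0.59 for Cd247. Cd3d, the delta chain, averaged 12.73 on the dKOMst S3 array, 12.68 ± 0.06 (SD) in Mst1KO S3, 12.69 ± 0.03 in WT S3, 12.76 ± 0.05 in dKOMst S1_S2, 12.63 ± 0.04 in Mst1KO S1_S2 and 12.67 ± 0.02 in WT S1_S2 cells. It was called in none of the 7 comparisons, and for Mst1KO S3 against WT S3 the 95% interval of its log2 difference ran from -0.11 to 0.11. Cd3g, the gamma chain, was not called either; its lowest values were 12.32 and 12.31, on the dKOMst S1_S2 arrays, against 12.47 to 12.61 on the 6 WT S1_S2 arrays (log2 difference -0.19 ± 0.08, adjusted p = 0.38).

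**Figure D1:**
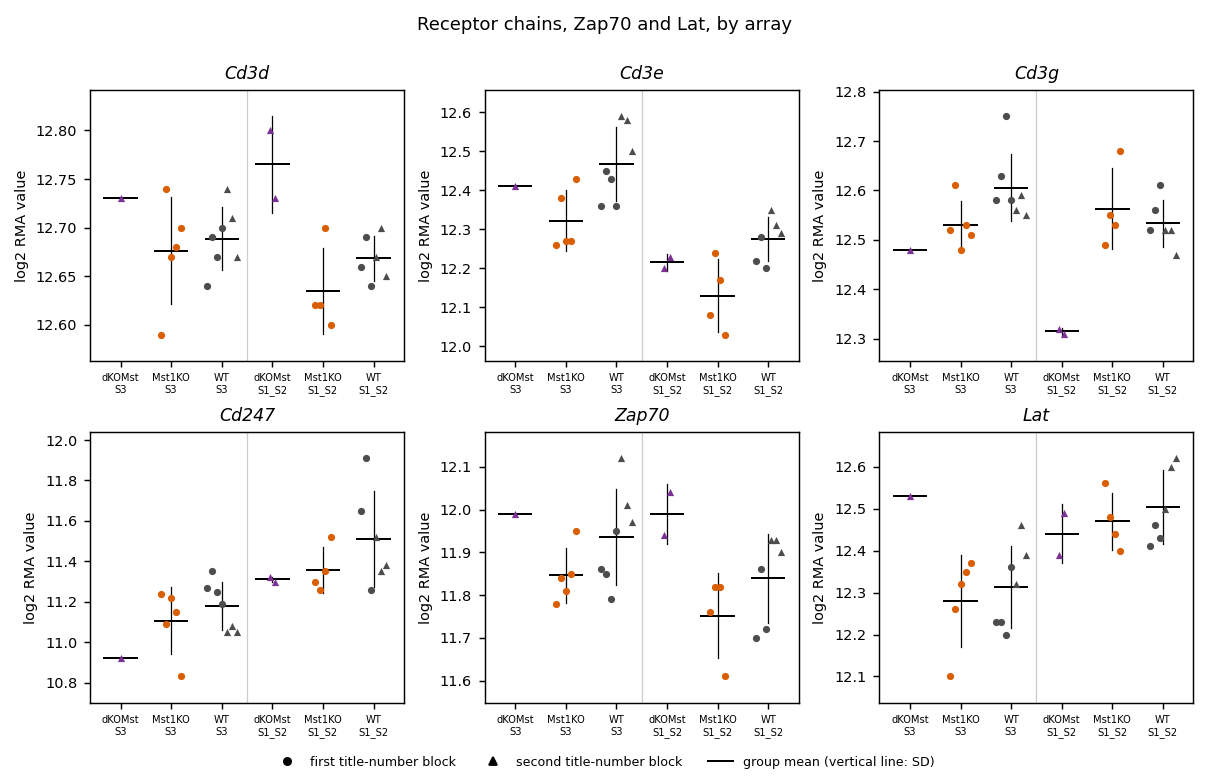
Log2 RMA value (y axis) of the receptor chains, Zap70 and Lat on each array, by group, with group means and SD; circles and triangles are the title-number blocks. Cd3d stays between 12.59 and 12.80 on all arrays. Cd3e has higher means in S3 than in S1_S2 cells of both Mst1KO and WT mice, called in WT alone. Cd247 and Lat have lower means in S3 than in S1_S2 cells of both Mst1KO and WT mice, called in WT alone.

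Between stages the other receptor chains moved by small steps of opposite sign. Cd3e, the epsilon chain, had a lowest, median and highest value of 12.36, 12.45 and 12.59 in WT S3 cells, against 12.20, 12.28 and 12.35 in WT S1_S2 cells. The groups did not overlap, and the difference was 0.20 ± 0.05 (adjusted p = 0.009). Cd247, the zeta chain, had 11.05, 11.19 and 11.35 in WT S3 cells, against 11.26, 11.45 and 11.91 in WT S1_S2 cells; the groups overlapped, and the difference was -0.35 ± 0.09 (adjusted p = 0.0047). In Mst1KO cells the same steps were 0.19 ± 0.06 for Cd3e (adjusted p = 0.055) and -0.25 ± 0.10 for Cd247 (adjusted p = 0.13). Neither was called, although the Mst1KO stages did not overlap for either gene. With 1 title-number block alone the WT step of Cd3e was not called (adjusted p = 0.29 in the first, 0.16 in the second), and that of Cd247 was not called in the first (0.15).

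Over the whole list, 21 of 45 members were called between WT S3 and WT S1_S2 cells (46.7%), 16 higher and 5 lower in S3, against 16.9% of all clusters (8.18% higher, 8.75% lower). Bright clusters were called more often: 34.5% of the brightest 25% passed the same test. In Mst1KO cells 14 members were called (31.1%), 11 higher and 3 lower, against 10.2% of all clusters (5.58% higher, 4.62% lower) and 19.4% of the brightest 25%. The median difference of the 45 members was 0.07 in WT and 0.09 in Mst1KO cells, and that of all clusters was 0.01 and -0.04. The 2 steps share no array, although both come from the same fit with 1 estimate of spread per cluster. In both, 13 members were called with the same sign, which is 92.9% of those called in Mst1KO cells and 61.9% of those called in WT cells. The matching share over all clusters was not computed, so this overlap is not set apart from that of other clusters. With WT arrays of 1 title-number block alone, 11 members were called in the first and 12 in the second, all with the sign of the full fit: Cd247, Cd4, Tec, Nfatc2 and Sla2 lost the call in the first, Cd5, Txk, Rasgrp1 and Sla in the second, and Cd3e, Lat, Bcl10, Fyb and Cblb in both. Cd8a was called in the Mst1KO step alone, and Cd3e, Cd247, Lat, Rasgrp1, Bcl10, Fyb, Sla and Sla2 in the WT step alone. No difference between the steps passed the test, as given further on. S1_S2 arrays hold cells of 2 stages, so which of them gives a level cannot be told apart, and marker sums moved with the stage too: the log2 sum of 5 NK cell markers was 12.37 to 12.65 in WT S3 cells and 8.22 to 8.74 in WT S1_S2 cells, and that of 5 NKT17 markers was 9.07 to 11.84 in WT S3 cells and 11.29 to 12.42 in WT S1_S2 cells. In Mst1KO cells the NK sum was 12.72 to 12.84 in S3 and 8.68 to 8.92 in S1_S2 cells, and the NKT17 sum 11.61 to 12.35 in S3 and 12.79 to 12.98 in S1_S2 cells. Their part in the members' steps was not tested.

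**Figure D2:**
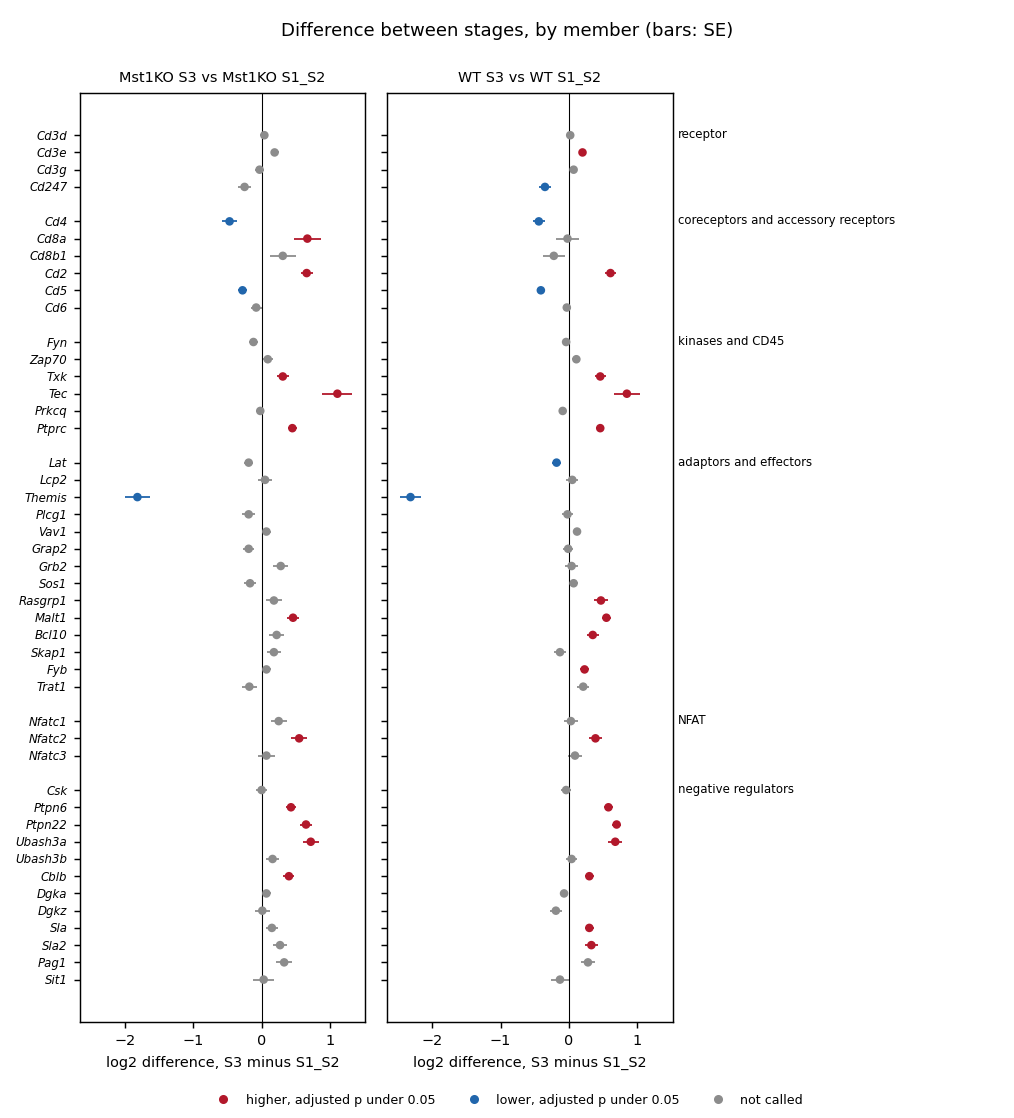
Log2 difference S3 minus S1_S2 (x axis, bars are SE) for all 45 measured members in Mst1KO and WT cells, grouped by role; red and blue mark members called higher or lower. Themis lies far left of all others in both panels, at -1.82 in Mst1KO and -2.32 in WT cells, and the called negative regulators all lie to the right of 0.

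Themis fell the most of all members. It encodes an adaptor of developing T cells that binds GRB2 and SHP-1 and sets signal strength during thymic selection. Its log2 values were 7.21, 7.87 and 8.23 (lowest, median, highest) in WT S3 cells, against 9.93, 10.01 and 10.14 in WT S1_S2 cells. In Mst1KO cells they were 8.02, 8.57, 8.26, 8.93 and 8.51 in S3, against 10.23, 10.34, 10.30 and 10.23 in S1_S2. The stages lay far apart in both genotypes, and the S3 values varied more (SD 0.34 in Mst1KO and 0.44 in WT cells) than the S1_S2 values (SD 0.05 and 0.07). The S3 minus S1_S2 difference of Themis was -1.82 ± 0.18 in Mst1KO cells (adjusted p = 2.2e-07) and -2.32 ± 0.15 in WT cells (adjusted p = 6.2e-11), where its linear level was 0.20 times that of S1_S2 cells. All these values lie above the negative controls. The log2 sum of 11 markers of CD4 CD8 double-positive thymocytes, a stage before the iNKT lineage, was lower in S3 too: 11.29 to 11.51 in Mst1KO S3 against 11.66 to 11.95 in Mst1KO S1_S2 cells, and 11.02 to 11.24 in WT S3 against 12.02 to 12.29 in WT S1_S2 cells. That sum was carried by Ccr9, a chemokine receptor gene, which averaged 7.54 ± 0.21 in Mst1KO S3 against 10.18 ± 0.34 in Mst1KO S1_S2 cells, and 6.72 ± 0.49 in WT S3 against 11.03 ± 0.23 in WT S1_S2 cells (SD). The list as a whole did not move one way: 3 of 11 were called higher (Dntt, Cd24a, Cd8a) and 1 lower (Ccr9) in the Mst1KO step, with a median of -0.04, and 1 higher (Dntt) and 3 lower (Ccr9, Mns1, Rmnd5a) in the WT step, with a median of -0.03. The defining marker Rag2 read below the negative controls on all WT arrays, and the part of such cells in the Themis step was not tested.

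Among coreceptors and accessory receptors, Cd2 rose and Cd4 and Cd5 fell with the stage in both genotypes. CD2 is an adhesion receptor for CD48, and its gene had 11.54, 11.56, 11.59, 11.47 and 11.54 in Mst1KO S3 cells, against 10.78, 10.77, 11.00 and 10.95 in Mst1KO S1_S2 cells. The groups were apart, at a difference of 0.66 ± 0.09 (adjusted p = 2.9e-05), and in WT cells it was 0.61 ± 0.08 (adjusted p = 3e-06). CD5 is a membrane protein whose level in thymocytes follows the strength of receptor signals. Its gene had 12.05, 12.09, 12.11, 12.08 and 12.05 in Mst1KO S3 cells, against 12.37, 12.31, 12.37 and 12.37 in Mst1KO S1_S2 cells, and 11.87, 11.87 and 11.95 (lowest, median, highest) in WT S3 cells, against 12.10, 12.32 and 12.43 in WT S1_S2 cells. S3 arrays were below all S1_S2 arrays in both genotypes, with differences of -0.28 ± 0.06 in Mst1KO (adjusted p = 0.0044) and -0.41 ± 0.05 in WT cells (adjusted p = 3e-06). Cd4 was lower in S3, at -0.47 ± 0.11 in Mst1KO cells (adjusted p = 0.0074) and -0.44 ± 0.09 in WT cells (adjusted p = 0.0016), although within the first block alone the WT step was -0.30 and not called (adjusted p = 0.21). With only the arrays that carry Y-linked signal, the Mst1KO steps of Cd4 and Cd5 were not called (adjusted p = 0.17 and 0.12), nor were those of Cd8a (0.42), Tec (0.075) and Nfatc2 (0.054) described next.

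Cd8a, the CD8 alpha chain, was called only in Mst1KO cells, where S3 exceeded S1_S2 by 0.67 ± 0.20 (adjusted p = 0.032). The values were 7.96, 7.71, 7.56, 8.05 and 8.12 in Mst1KO S3 cells, against 7.23, 7.64, 7.04 and 6.94 in Mst1KO S1_S2 cells, and 1 S1_S2 array overlapped the S3 range. That call was lost without any 1 of 6 arrays: the adjusted p was 0.071, 0.099 and 0.12 without S1_S2 replicates 1, 3 and 4, and 0.059, 0.07 and 0.086 without S3 replicates 1, 4 and 5. Cd8b1 and Cd6, a receptor related to CD5, were not called between stages.

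Of the kinases, Txk and Tec rose with the stage, as did Ptprc. TXK and TEC are Tec-family kinases, which act on phospholipase C gamma; Tec had 9.98, 9.54, 9.32, 9.81 and 9.69 in Mst1KO S3 cells, against 8.36, 9, 8.54 and 8.31 in Mst1KO S1_S2 cells. The groups were apart, with a difference of 1.11 ± 0.22 (2.17-fold, adjusted p = 0.0015). In WT cells the groups overlapped, the difference was 0.85 ± 0.19 (adjusted p = 0.0018), and it was 0.53 within the first block (adjusted p = 0.23) and 1.22 within the second. Txk was higher in S3 by 0.31 ± 0.09 in Mst1KO (adjusted p = 0.038) and 0.46 ± 0.08 in WT cells (adjusted p = 0.00014); leaving out any of 6 single Mst1KO arrays ended the Mst1KO call, with adjusted p of 0.15, 0.082 and 0.073 without S1_S2 replicates 1, 2 and 4, and 0.056, 0.086 and 0.11 without S3 replicates 1, 2 and 5. Ptprc encodes CD45, the phosphatase that removes the inhibitory phosphate of Lck. It was higher in S3 by 0.45 ± 0.07 in Mst1KO (adjusted p = 4.8e-05) and 0.46 ± 0.06 in WT cells (adjusted p = 1.2e-06), and the stages did not overlap in either genotype. Fyn, Zap70 and Prkcq, which encode a Src-family kinase, ZAP-70 and PKC theta, were called in neither step.

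Of the 14 adaptors and effectors, 6 were called in WT and 2 in Mst1KO cells. These were 42.9% and 14.3% of the 14, against 16.9% and 10.2% of all clusters. Of the brightest 25% of clusters, 34.5% and 19.4% were called, so the Mst1KO share of this role was below that of bright clusters. Malt1, the protease of the CARMA-BCL10-MALT1 complex, had 10.78, 11.05, 10.73, 10.74 and 10.80 in Mst1KO S3 cells, against 10.32, 10.35, 10.45 and 10.32 in Mst1KO S1_S2 cells. The groups were apart at 0.46 ± 0.09 (adjusted p = 0.001), and in WT cells the difference was 0.55 ± 0.07 (adjusted p = 6.2e-06). Its partner Bcl10 was 0.35 ± 0.09 higher in WT S3 (adjusted p = 0.0073), and Rasgrp1, which activates Ras downstream of diacylglycerol, 0.47 ± 0.10 higher (adjusted p = 0.00089). Fyb, the adhesion adaptor ADAP, was 0.23 ± 0.06 higher (adjusted p = 0.0093). Lat, the scaffold phosphorylated by ZAP-70, was lower in WT S3 cells (-0.18 ± 0.06, adjusted p = 0.028), the smallest called step of the list; the adjusted p was 0.054, 0.054 and 0.061 without WT S1_S2 replicates 2, 5 and 6, and 0.052 and 0.065 without WT S3 replicates 3 and 5. In Mst1KO cells Bcl10, Rasgrp1, Fyb and Lat had differences of 0.22, 0.18, 0.07 and -0.19, none called. For Lat the stages did not overlap in Mst1KO cells and overlapped in WT cells. Of the NFAT factors, Nfatc2 was higher in S3, by 0.55 ± 0.12 in Mst1KO (adjusted p = 0.0041) and 0.39 ± 0.10 in WT cells (adjusted p = 0.0084), and Nfatc1 and Nfatc3 were not called.

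Of the 12 negative regulators, 6 were higher in S3 in WT cells and 4 in Mst1KO cells, and none was called lower. These were 50% and 33.3% of the 12, against 8.18% and 5.58% of all clusters called higher. Of the brightest 25% of clusters, 34.5% and 19.4% were called in either direction. Ptpn22, a phosphatase that acts on Lck and ZAP-70 together with CSK, had 11.71, 11.80, 11.58, 11.74 and 11.66 in Mst1KO S3 cells, against 11.13, 11.09, 11.00 and 10.95 in Mst1KO S1_S2 cells. In WT cells it had 11.55, 11.71 and 12.01 (lowest, median, highest) in S3, against 10.93, 11.03 and 11.21 in S1_S2. The stages were apart in both genotypes, by 0.65 ± 0.09 (adjusted p = 1.5e-05) in Mst1KO and 0.70 ± 0.07 (adjusted p = 1.6e-07) in WT cells. Ptpn6, which encodes the phosphatase SHP-1, was higher by 0.43 ± 0.07 (adjusted p = 0.00011) and 0.58 ± 0.06 (adjusted p = 5.1e-08). For Ubash3a, a gene of the STS family of suppressors of receptor signalling, the steps were 0.72 ± 0.12 (adjusted p = 0.0002) and 0.68 ± 0.10 (adjusted p = 1.7e-05), and for the ubiquitin ligase gene Cblb 0.40 ± 0.08 (adjusted p = 0.002) and 0.30 ± 0.07 (adjusted p = 0.0027). Sla and Sla2, whose adaptor products promote removal of the receptor from the surface, were called in WT cells alone, at 0.30 ± 0.07 (adjusted p = 0.0044) and 0.33 ± 0.09 (adjusted p = 0.0074). Csk, Ubash3b, Dgka, Dgkz, Pag1 and Sit1 were called in neither step.

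**Figure D3:**
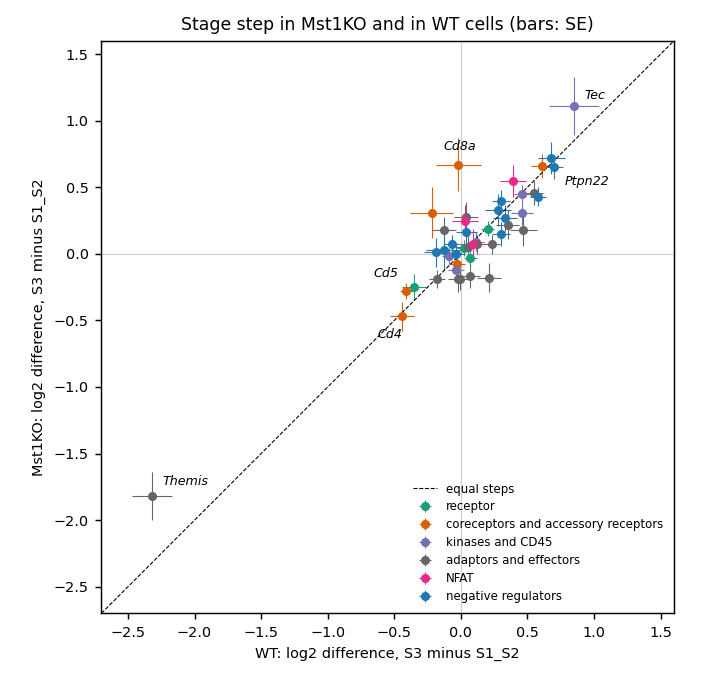
Log2 difference S3 minus S1_S2 in Mst1KO cells (y axis) against WT cells (x axis) for the 45 members, coloured by role, with SE bars; the dashed line marks equal steps. Most members lie near the line, Themis at the lower left, Cd8a above it.

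Set side by side, the steps had the same sign for 36 of 45 members, with a Pearson r of 0.899 and a Spearman rho of 0.738 across members, and r was 0.796 over the other 44 without Themis. The points share arrays and platform, and genes are not independent replicates, so these are descriptions. The same values over all clusters were not computed, so this likeness is not set apart from that of other clusters. The difference between the steps was called for no member and for 0.158% of all clusters. An unadjusted p under 0.05 was reached by 5 members (11.1%), against 9.49% of all clusters and 11.7% of the brightest 25%. The 5 were Trat1 (-0.39 ± 0.14, adjusted p = 0.37), Cd8a (0.69 ± 0.26, adjusted p = 0.40), Skap1 (0.30 ± 0.14, adjusted p = 0.48), Cd8b1 (0.53 ± 0.25, adjusted p = 0.51) and Themis (0.51 ± 0.24, adjusted p = 0.51). Their 95% intervals were wide (0.15 to 1.22 for Cd8a, 0.01 to 1.00 for Themis), and a p that misses the threshold does not show that the steps were equal.

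Between genotypes at S3, 5 of 45 members were called in Mst1KO against WT cells (11.1%), 4 higher and 1 lower, against 6.37% of all clusters (3.73% higher, 2.64% lower) and 10.9% of the brightest 25%. The coreceptors moved in opposite directions: Cd4 was lower and Cd8b1 higher in Mst1KO cells. The other called members were Themis, Dgka and Sit1, all higher. The median of the members was 0.02 and that of all clusters -0.05.

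**Figure D4:**
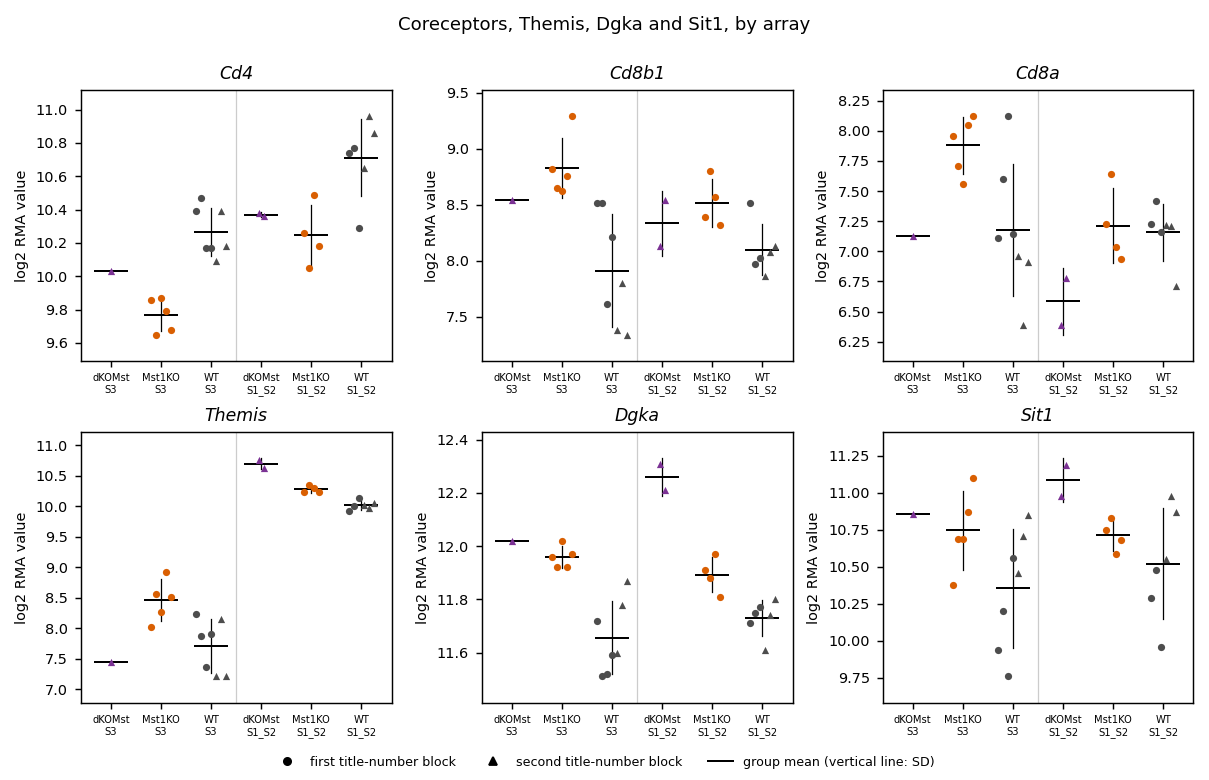
Log2 RMA value (y axis) of Cd4, Cd8b1, Cd8a, Themis, Dgka and Sit1 on each array, by group, with group means and SD; circles and triangles are the title-number blocks. All 5 Mst1KO S3 arrays lie below the 7 WT S3 arrays for Cd4 and above them for Cd8b1 and Dgka, while Themis and Sit1 overlap.

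Cd4 encodes the coreceptor for MHC class II, which part of iNKT cells carry. Its values were 9.86, 9.65, 9.87, 9.79 and 9.68 in Mst1KO S3 cells, against 10.09, 10.18 and 10.47 (lowest, median, highest) in WT S3 cells. The groups did not overlap; Cd4 was lower in Mst1KO cells (-0.47 ± 0.11, adjusted p = 0.013), with a difference of -0.53 against the WT arrays of the first block alone, and the call held with every array left out in turn and with only the arrays that carry Y-linked signal (adjusted p = 0.045). At S1_S2 it had 10.26, 10.05, 10.49 and 10.18 in Mst1KO cells, against 10.29, 10.75 and 10.96 in WT cells, a difference of -0.43 ± 0.12 that was not called (adjusted p = 0.13). Without WT S1_S2 replicate 3, the lowest of its group, Cd4 was called lower there as well (-0.56, adjusted p = 0.012), as it was with no block term (-0.47, adjusted p = 0.047).

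Cd8b1, the CD8 beta chain, had 8.82, 8.65, 8.62, 8.76 and 9.29 in Mst1KO S3 cells, against 7.34, 7.80 and 8.52 in WT S3 cells. The groups did not overlap, and Cd8b1 was 0.73 ± 0.18 higher (1.66-fold, adjusted p = 0.018). Against the first-block WT arrays alone the difference was 0.61 and not called (adjusted p = 0.083), and the call was also lost without WT S3 replicate 3 (0.052), without Mst1KO S3 replicate 5 (0.059) and with Y-linked arrays only (0.056). Cd8a, at 7.96, 7.71, 7.56, 8.05 and 8.12 in Mst1KO S3 cells, against 6.39, 7.11 and 8.12 in WT S3 cells, was 0.49 ± 0.19 higher with overlapping groups and was not called (adjusted p = 0.12). WT S3 replicate 3, which was low for Cd8b1, was the highest WT array for Cd8a, and without it Cd8a was called (0.67, adjusted p = 0.023). Of 11 measured markers of CD4 CD8 double-positive thymocytes, 3 were called higher in Mst1KO S3 cells and none lower. The 3 were Cd8b1 itself, Ccr9 (0.98 ± 0.18, adjusted p = 0.003) and Cd24a (0.52 ± 0.15, adjusted p = 0.042), the last below the negative controls on every array. The median difference of the 11 was 0.39. Ptcra and Cd1d1 had lower means in Mst1KO S3 than in WT S3 cells (8.09 against 8.29, and 8.22 against 8.51). The log2 sum of the 11 was 11.29 to 11.51 in Mst1KO S3 and 11.02 to 11.24 in WT S3 cells. Cd8a and Cd8b1 are among the 11, so that sum is not separate from the coreceptor values. Rag2 did not differ detectably (0.02 ± 0.19, adjusted p = 0.97). The part of such cells, and of the CD8 bead step, in the coreceptor differences was not tested.

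Themis, by array as given with its stage step, averaged 8.46 ± 0.34 in Mst1KO S3 and 7.71 ± 0.44 in WT S3 cells (SD, n = 5 and 7), so the fall with the stage ended at a higher level in Mst1KO cells. The ranges overlapped, and the difference was 0.68 ± 0.17 (1.6-fold, adjusted p = 0.022). It was the least stable of the called members: the adjusted p was 0.052, 0.064 and 0.051 without Mst1KO S3 replicates 2, 4 and 5, 0.06 without WT S3 replicate 3, 0.054 within the first block, 0.061 with a sex term and 0.13 with Y-linked arrays only. At S1_S2 Themis had 10.23 to 10.34 in Mst1KO cells and 9.93 to 10.14 in WT cells, a difference of 0.17 ± 0.19 (adjusted p = 0.90) after the block term.

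Dgka and Sit1 were the called negative regulators. Diacylglycerol kinase alpha (Dgka) removes the lipid that recruits RASGRP1, and its gene had 11.96, 11.92, 12.02, 11.92 and 11.97 in Mst1KO S3 cells, against 11.51, 11.60 and 11.87 in WT S3 cells. The groups did not overlap, and Dgka was 0.34 ± 0.07 higher (1.26-fold, adjusted p = 0.0064), a call that held with every array left out in turn but not with Y-linked arrays only (adjusted p = 0.054). Sit1, a membrane adaptor that interacts with receptor signalling and recruits SHP-2, had 10.38, 10.69, 10.69, 10.87 and 11.10 in Mst1KO S3 cells, against 9.76, 10.46 and 10.85 in WT S3 cells. The groups overlapped over all WT arrays, and its difference of 0.63 ± 0.14 (adjusted p = 0.011) depends on the block term: Sit1 was 0.56 higher in second-block arrays, the difference without the term was 0.39 (adjusted p = 0.26), and within the first block it was 0.63 (adjusted p = 0.042). It was not called with the block as a random effect (0.50, adjusted p = 0.083) or with Y-linked arrays only (0.61, adjusted p = 0.076).

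Receptor chains, kinases with Ptprc and NFAT factors (4, 6 and 3 members) had no call between Mst1KO and WT cells at S3. Of all clusters 6.37% were called, and of the brightest 25% of clusters 10.9%. With so few members, the lack of calls does not set these roles apart from other clusters. The log2 differences lay between -0.16 and 0 for the 4 chains and between -0.10 and 0.20 for the kinases and Ptprc, and Zap70 had a 95% interval of -0.15 to 0.11. Grb2, an adaptor to SOS, lay just outside the threshold with groups that touched at 10.41 (10.41, 10.61, 10.44, 10.62 and 10.53 in Mst1KO S3 cells, against 10.09, 10.21 and 10.41 in WT S3 cells; 0.32 ± 0.10, adjusted p = 0.058), as did Malt1 with overlapping groups (-0.27 ± 0.08, adjusted p = 0.059). Cd5 was higher by 0.15 ± 0.06 with groups apart (adjusted p = 0.13). Of 5 NKT17 markers, 1 was called higher in Mst1KO S3 cells (Ccr6, 1.63 ± 0.38, adjusted p = 0.015), and their log2 sums overlapped, at 11.61 to 12.35 in Mst1KO S3 and 9.07 to 11.84 in WT S3 cells. NK cell markers summed to 12.72 to 12.84 in Mst1KO S3 and 12.37 to 12.65 in WT S3 cells, with 2 of 5 called higher and 1 lower. Ncr1, among these 5, read above the negative controls on no Mst1KO S3 array. Of 2 gamma-delta T markers 1 was called higher, and their sums overlapped, at 9.46 to 9.88 in Mst1KO S3 and 9.17 to 9.52 in WT S3 cells. The part of such cells in these results was not tested.

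At S1_S2 no member was called between Mst1KO and WT cells, and 0.522% of all clusters were called. An unadjusted p under 0.05 was reached by 7 members (15.6%), against 8.65% of all clusters and 13.3% of the brightest 25%. The 7 were Cd4, Sit1 (0.47 ± 0.16, adjusted p = 0.27), Grap2 (0.23 ± 0.08, adjusted p = 0.33), Rasgrp1 (0.33 ± 0.12, adjusted p = 0.36), Dgka (0.20 ± 0.08, adjusted p = 0.42), Ptpn6 (0.18 ± 0.07, adjusted p = 0.42) and Cd247 (-0.25 ± 0.11, adjusted p = 0.48). Dgka had 11.91, 11.88, 11.97 and 11.81 in Mst1KO S1_S2 cells, against 11.61, 11.75 and 11.80 in WT S1_S2 cells. The groups were just apart, and the 95% interval of the difference ran from 0.04 to 0.36. The NKT17 marker sum was 12.79 to 12.98 in Mst1KO S1_S2 and 11.29 to 12.42 in WT S1_S2 cells, with none of the 5 called. Of 2 gamma-delta T markers, 1 was called higher and 1 lower, with sums of 10.15 to 10.38 in Mst1KO S1_S2 and 9.78 to 10.06 in WT S1_S2 cells. The double-positive thymocyte sum was 11.66 to 11.95 and 12.02 to 12.29, with no marker called. The part of such cells in these differences was not tested.

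**Figure D5:**
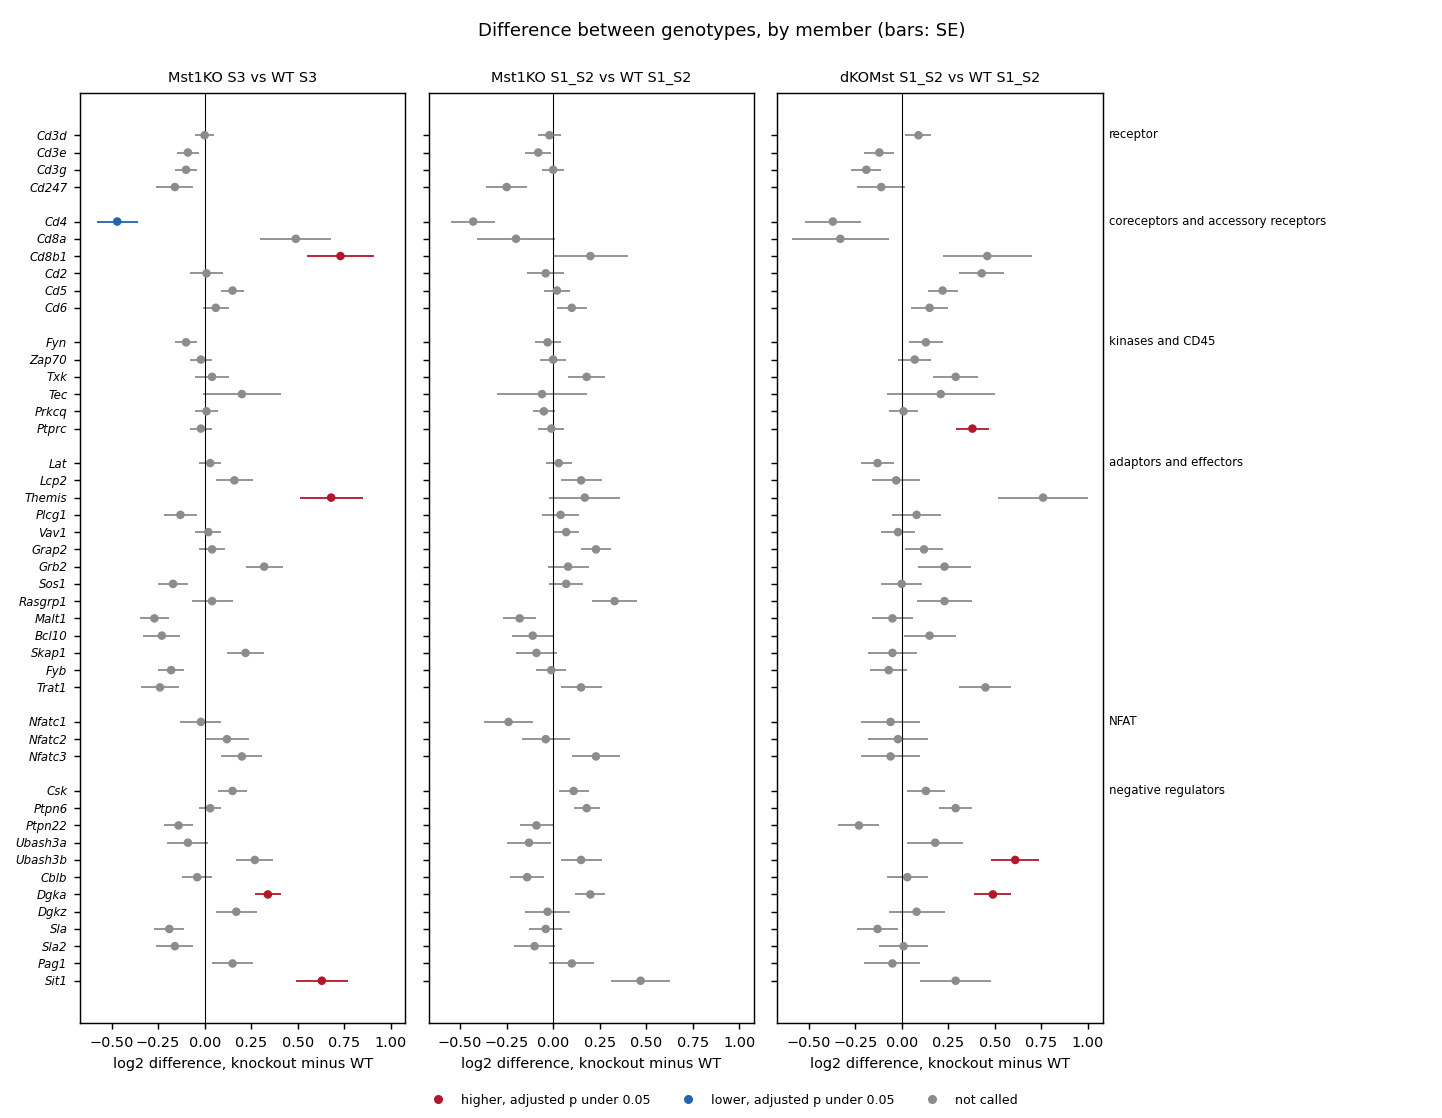
Log2 difference between knockout and WT cells (x axis, bars are SE) for all 45 members: Mst1KO at S3, Mst1KO at S1_S2 and dKOMst at S1_S2. Called members are Cd4, Cd8b1, Themis, Dgka and Sit1 in the first panel, none in the second, and Ptprc, Ubash3b and Dgka in the third.

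In dKOMst S1_S2 cells 3 of 45 members were called against WT S1_S2 cells (6.67%), all higher, against 0.923% of all clusters (0.554% higher) and 2.09% of the brightest 25%. These were Ptprc and the negative regulators Ubash3b and Dgka. With 2 arrays in the group, each of these calls was lost without either dKOMst array. The median of the members was 0.08 and that of all clusters 0.01.

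Dgka had 12.31 and 12.21 in dKOMst S1_S2 cells, against 11.61, 11.75 and 11.80 in WT S1_S2 cells. Both dKOMst values lay above those of every other array, of which the highest was 12.02. The difference was 0.49 ± 0.10 (1.40-fold, adjusted p = 0.0092), and the adjusted p was 0.25 and 0.054 without dKOMst replicates 1 and 2. Ubash3b, whose product STS-1 dephosphorylates ZAP-70, had 9.58 and 9.68 in dKOMst S1_S2 cells, against 8.99, 9.11 and 9.41 in WT S1_S2 cells; the groups were apart by 0.61 ± 0.13 (adjusted p = 0.02). Without dKOMst replicates 1 and 2 its adjusted p was 0.17 and 0.19, and it was 0.052 without WT S1_S2 replicate 4. Ptprc had 12.60 and 12.68 in dKOMst S1_S2 cells, against 12.15, 12.32 and 12.55 in WT S1_S2 cells, a difference of 0.38 ± 0.09 (adjusted p = 0.029). It was not called without dKOMst replicate 1 or 2 (0.19 and 0.25) or without WT S1_S2 replicates 4, 5 or 6 (0.088, 0.058 and 0.07).

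Within the second block, which holds the same 2 dKOMst and 3 WT arrays, the differences were 0.54 for Dgka, 0.56 for Ubash3b and 0.43 for Ptprc, and none was called (adjusted p = 0.13, 0.24 and 0.17). With no block term Dgka stayed called, and Ubash3b and Ptprc were not (adjusted p = 0.086 and 0.11). Themis was higher by 0.76 ± 0.24, with 10.76 and 10.63 in dKOMst S1_S2 cells against 9.93 to 10.14 in WT S1_S2 cells, and the groups were apart although it was not called (adjusted p = 0.16). Cd2 (0.43 ± 0.12, adjusted p = 0.11), Ptpn6 (0.29 ± 0.09, adjusted p = 0.14) and Trat1, an adaptor that holds the zeta chain at the surface (0.45 ± 0.14, adjusted p = 0.15), were not called either. Some markers listed for other cells differed as well: the log2 sum of 5 NK cell markers was 9.47 to 9.67 in dKOMst S1_S2 and 8.22 to 8.74 in WT S1_S2 cells. Ncr1, an NK cell marker among the 5, read above the negative controls on no array of either group. The log2 sum of 7 myeloid markers was 9.45 to 9.58 and 9.03 to 9.44, ranges that nearly touch. The sums of B cell, double-positive thymocyte, gamma-delta T, regulatory T and NKT17 markers overlapped. These sums carry no block term. The part of such cells in the Ptprc, Ubash3b and Dgka differences was not tested.

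Against Mst1KO S1_S2 cells, dKOMst S1_S2 cells had no called member, with 0.171% of all clusters called. An unadjusted p under 0.05 was reached by 6 members (13.3%), against 8.5% of all clusters and 11.9% of the brightest 25%. The block separates these groups and was bridged by WT arrays. Ptprc had the smallest p, with 12.60 and 12.68 in dKOMst S1_S2 cells, against 12.34, 12.33, 12.42 and 12.44 in Mst1KO S1_S2 cells (0.40 ± 0.10, adjusted p = 0.14), followed by Cd2 (0.47 ± 0.15, adjusted p = 0.25) and Ubash3b (0.46 ± 0.16, adjusted p = 0.34).

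The single dKOMst S3 array has no replicate and is set beside the 3 WT S3 arrays of its block as values. Of the 45 members, 9 lay above all 3, 19 below all 3 and 17 within their range, where 26.6% and 26% of all clusters lay above and below. Cd8b1 alone differed by more than 1, at 8.54 against 7.51 ± 0.26 (SD), a difference passed by 0.919% of all clusters in either direction. Plcg1, which encodes phospholipase C gamma 1, was at 10 against 10.48 ± 0.16, Tec at 9.15 against 9.63 ± 0.40, Sos1, a Ras activator, at 9.62 against 10.06 ± 0.16, and Dgka at 12.02 against 11.75 ± 0.14. Themis, at 7.45 against 7.53 ± 0.55, lay within the WT range.

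Counts over several comparisons have no matching share of all clusters here, so they are not set apart from those of other clusters. In all, 26 members were called in at least 1 comparison and 7 of them in a comparison of genotypes. The other 19 were called in none: Cd3d, Cd3g, Cd6, Fyn, Zap70, Prkcq, Lcp2 (SLP-76), Plcg1, Vav1, Grap2 (GADS), Grb2, Sos1, Skap1, Trat1, Nfatc1, Nfatc3, Csk, Dgkz and Pag1. Their stage differences ran from -0.19 (Dgkz) to 0.28 (Pag1) in WT and from -0.19 (Plcg1) to 0.33 (Pag1) in Mst1KO cells. Genotype differences ran from -0.24 (Trat1) to 0.32 (Grb2) in Mst1KO S3, from -0.24 (Nfatc1) to 0.23 (Grap2) in Mst1KO S1_S2 and from -0.19 (Cd3g) to 0.45 (Trat1) in dKOMst S1_S2 cells.

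A further list of 53 genes of the same pathway had 39 measured. Of these, 8 rose and none fell with the stage in Mst1KO cells, and 11 rose and 2 fell in WT cells. These are 20.5% and 33.3% of the 39, against 10.2% and 16.9% of all clusters and 19.4% and 34.5% of the brightest 25%. Ppp3cc, a catalytic subunit of calcineurin, which activates NFAT, was 1.62 ± 0.12 higher in S3 in Mst1KO (adjusted p = 1.3e-09) and 1.38 ± 0.10 higher in WT cells (adjusted p = 2.8e-10). Ptprj, the phosphatase CD148, was higher by 1.41 ± 0.19 (adjusted p = 1.7e-05) and 1.34 ± 0.16 (adjusted p = 1.1e-06). The 2 that fell in WT cells were the costimulatory receptor gene Cd28 (-0.24 ± 0.07, adjusted p = 0.019) and Rasa1, a Ras inhibitor (-0.30 ± 0.08, adjusted p = 0.0077). Between Mst1KO and WT cells at S3, 3 of the 39 were called (7.69%, against 6.37% of all clusters): Nras (0.62 ± 0.12, adjusted p = 0.0027) and Ptpn2 (0.32 ± 0.09, adjusted p = 0.047) were higher and Ptprj was lower (-0.74 ± 0.18, adjusted p = 0.019). No gene of the list was called in the other 4 comparisons.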

How the data were processed

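Levels were the log2 values of the deposited series table. Per the submitters' processing notes, RMA and Affymetrix Expression Console 1.1 were used to make them, from RNA amplified and labelled with NuGEN kits, per the labels' protocols. They were used as deposited. Of 28846 items, 6640 controls were left out, and 22206 clusters were tested, of which 19572 carry 1 gene symbol in GEO's platform annotation and 2634 none. For a symbol with several clusters the one with the highest mean was used; each measured member had 1. No arrays had identical values, and within groups arrays correlated at 0.981 to 0.9927 across clusters. The number of arrays limits the precision. No source used here names a genome build for the array annotation.

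Models were fitted over all clusters with limma 3.58.1 in R 4.3.3 (lmFit, eBayes), with a mean for each of 6 groups and the additive title-number block, leaving 18 residual degrees of freedom, with Benjamini-Hochberg adjustment of the p-values across the 22206 clusters. Replicate numbers, given in accession order, only name arrays. A marker sum is the log2 of the summed linear levels. Members called in any comparison are described with values and the others by range. The members and lists were chosen with earlier results of these data known. Promoter letters were searched in Python 3.11.15 with pandas 2.3.3, and figures drawn with matplotlib 3.10.9.

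The fit was first tested on simulated data with known changes. Alternatives changed the block term, arrays, normalization, filter, variance model and sex term, and left out each array.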

Additional observations from a re-analysis of the deposited data

Results flagged for a closer look

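Of 180 pairs of a member and a group with 4 to 10 arrays, 12 (6.67%) held an array far from the others, 6 high and 6 low, by a rule that flags about 1 in 20 by chance. In Mst1KO S3 cells, Fyn (11.02, others 10.79 to 10.85) and Malt1 (11.05, others 10.73 to 10.80) were high on replicate 2. In Mst1KO S1_S2 cells, replicate 2 was low for Cd5 (12.31, others 12.37) and high for Plcg1 (10.63, others 10.54 to 10.55). In WT S3 cells, Cd3g was high on replicate 3 (12.75), Nfatc1 high on replicate 5 (11.04) and Ptpn6 low on replicate 2 (11.77). In WT S1_S2 cells, replicate 3 was low for Grb2 (9.76) and high for Fyb (11.28), replicate 5 was low for Prkcq (12.08) and Trat1 (9.50), and Cd8a was low on replicate 6 (6.71).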

How the results depend on the processing

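None of the 43 member calls changed direction under any setting. Members were not checked for direction in comparisons where they were not called. Of 450 values of the 43 member calls under other settings, 393 kept direction and call and 57 lost the call; of 483 with 1 array left out, 450 kept and 33 lost it, and 35 calls held with every array left out, 16 of them under every setting as well. The count of 5 members for Mst1KO against WT at S3 was 3 with the first block only, 2 with only the groups compared, 8 with a trended and robust variance, 1 with only arrays with Y-linked signal, and 3 to 6 with an array left out. For Mst1KO at S1_S2 the count of 0 was 1 with no block term and 0 to 1 with an array left out. The count of 3 for dKOMst against WT at S1_S2 was 1 with no block term, 0 with the second block only, 0 with only the groups compared, 5 with a trended and robust variance, 1 with Y-linked arrays only and 0 to 3 with an array left out. dKOMst against Mst1KO gave 1 with a trended and robust variance and otherwise 0. The 21 of the WT step became 11 with the first and 12 with the second block alone (20 to 22 with an array left out), and the 14 of the Mst1KO step became 9 with Y-linked arrays only (12 to 15). The difference between the steps gave 0 throughout. Settings with fewer arrays have fewer degrees of freedom; the cause of the other shifts was not tested. No paired analysis was possible because the labels number no replicates within a group, and comparisons whose groups lie in different blocks could not be fitted within 1 block.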

Other observations

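The title-number block was called for 6 of the 45 members and for 1362 of all clusters. All 6 were higher in the second block: Sit1 by 0.56 (adjusted p = 0.011), Nfatc3 by 0.53 (adjusted p = 0.0039), Pag1 by 0.33 (adjusted p = 0.048), Vav1 by 0.29 (adjusted p = 0.0061), Csk by 0.26 (adjusted p = 0.024) and Cblb by 0.25 (adjusted p = 0.032). What the block stands for is not given in the labels.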
